A study of Mus musculus with 8 samples.

Results

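The MYC, MAX and MXD network was examined in JUN TetON ESCs, a mouse embryonic stem cell line that expresses JUN once doxycycline is added. The 10 genes described here were taken by name from the 50600 gene names of the deposited expression table, and were Myc, Mycn, Mycl, Max, Mxd1, Mxd3, Mxd4, Mnt, Mga and Mlx. All 10 were found. The libraries came from OG2 transgenic ESCs of the c-Jun_TetOn_mESC genotype (mixed strain, with 129SVJ as 1/2, C57B6 as 3/8 and CBA as 1/8), grown without feeder cells in medium with LIF, PD0325901 (a MEK inhibitor) and Chir99021 (a GSK3 inhibitor). All 4 groups received doxycycline at 2 μg/ml, together with either the solvent DMSO, a single compound (PFI-3 or BI-9564) or the pair of them (P+B), and the labels give 6 h for the treatment, while the study's own text on these libraries gives a longer time for JUN induction than for the compounds. PFI-3 binds the bromodomain of BRG1 (Smarca4) and its relatives, and BI-9564 binds those of BRD9 and BRD7, all subunits of BAF or PBAF chromatin remodelling complexes. Each group had 2 libraries, 8 in all. JUN was induced in every group, so no value here compares cells with and without JUN. The labels do not say whether the replicates were separate cultures, so p-values measure only the spread between these libraries, which may be technical. The dose of each compound within P+B was not settled for the RNA-seq, although the study gives one for another assay, and P+B is therefore set beside the single compounds as labelled, not at a matched dose.

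MYC, MYCN and MYCL are closely related transcription factors that bind DNA only as a dimer with MAX, at the E-box sequence CACGTG, and raise genes of growth, nucleotide synthesis and ribosome production. The MXD proteins and MNT also pair with MAX, occupy the same sequence and recruit SIN3 co-repressors, which makes them antagonists of MYC. MGA pairs with MAX within a variant Polycomb complex, PRC1.6, that keeps germline genes silent in ESCs, and MLX pairs with MondoA (Mlxip) and ChREBP (Mlxipl) as well as with MXD1, MXD4 and MNT. In ESCs, MYC proteins are known for their part in self-renewal, and Myc and Mycn can stand in for each other to a large extent.

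Because the network reads one DNA sequence, the promoters of its own genes were searched for it. RefSeq sequences (GRCm38.p6) of the 250 bases before the gene start were matched for 9 of the 10 genes, all but Myc. The E-box CACGTG, which reads the same on both strands, was found in 3 of these 9 promoters, against 6.02% of 32851 promoters of the same length. The windows around these matches, within the 250 bases searched, are printed 5′ to 3′ along the gene with the E-box in capitals.
Mxd4: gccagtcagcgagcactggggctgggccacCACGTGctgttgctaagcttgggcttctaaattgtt
Mnt: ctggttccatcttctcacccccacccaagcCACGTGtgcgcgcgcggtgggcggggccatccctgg
Mlx: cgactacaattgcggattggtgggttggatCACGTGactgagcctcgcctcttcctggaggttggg
The Mxd4 window lies at chr5:34187894-34187959 on the minus strand, with the E-box 219 bases before the gene start. The Mnt window is at chr11:74830771-74830836 on the plus strand, with the E-box 123 bases before the start, and the Mlx window at chr11:101087220-101087285 on the plus strand, with the E-box 40 bases before the start. These distances run from the first base of the E-box to the start used in the RefSeq table, which is not the GENCODE start of the gene coordinates. The sequence bound by JUN dimers, TGACTCA on either strand, was in 0 of the 9 windows, against 4.46% of all promoters. A match is a description of these letters, not of a bound site.

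In GRCm38 (GENCODE M21), Myc lies at chr15:61985391-61990374 on the plus strand, Mycn at chr12:12936093-12941914 on the minus strand and Mycl at chr4:122995652-123002485 on the plus strand, and none of the 3 overlaps another annotated gene. Mnt (chr11:74830920-74845725) and Mga (chr2:119897228-119969581), both on the plus strand, do not either. Mlx (chr11:101087277-101092207, plus strand) overlaps Psmc3ip and Mxd3 (chr13:55325168-55329823, minus strand) overlaps Prelid1, each on the opposite strand, and Mxd4 (chr5:34173883-34187720, minus strand) overlaps the antisense transcript Gm42846. Max (chr12:76937269-76962201) and Mxd1 (chr6:86647042-86669161), on the minus strand, overlap the transcripts Gm47218 and Gm44292 of the same strand. Whether the authors' quantification used strand is not given in the sources used here, so the values of these 5 genes may hold reads of the transcripts they overlap.

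The values are TPM (a level scaled by gene length and by the total of the library) as deposited in whole numbers, which allows levels to be set side by side between genes. Averaged over the 8 libraries, Max had the highest level of the network at 72.3 TPM, followed by Mga at 65.3, Mlx at 44.5, Myc at 27.4, Mnt at 19, Mycn at 13.4, Mxd3 at 8.5, Mxd4 at 5.5, Mycl at 5.13 and Mxd1 at 3. Max, the partner of most of the other proteins, was thus above every MYC and every MXD gene. In the DMSO libraries the neighbours Max and Mga overlapped, and Mxd4, Mycl and Mxd1 were all listed at 3 TPM in both, while each of the other neighbours in this order was separated in both libraries. With P+B the order was different in the middle: Myc (16 and 15 TPM) overlapped Mycn (17 and 14 TPM) and Mnt (19 and 15 TPM) in level. At levels under about 10 TPM, a step of 1 TPM from whole-number values is a large share of the level, which bears on Mxd1, Mxd3, Mxd4 and Mycl.

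**Figure D1:**
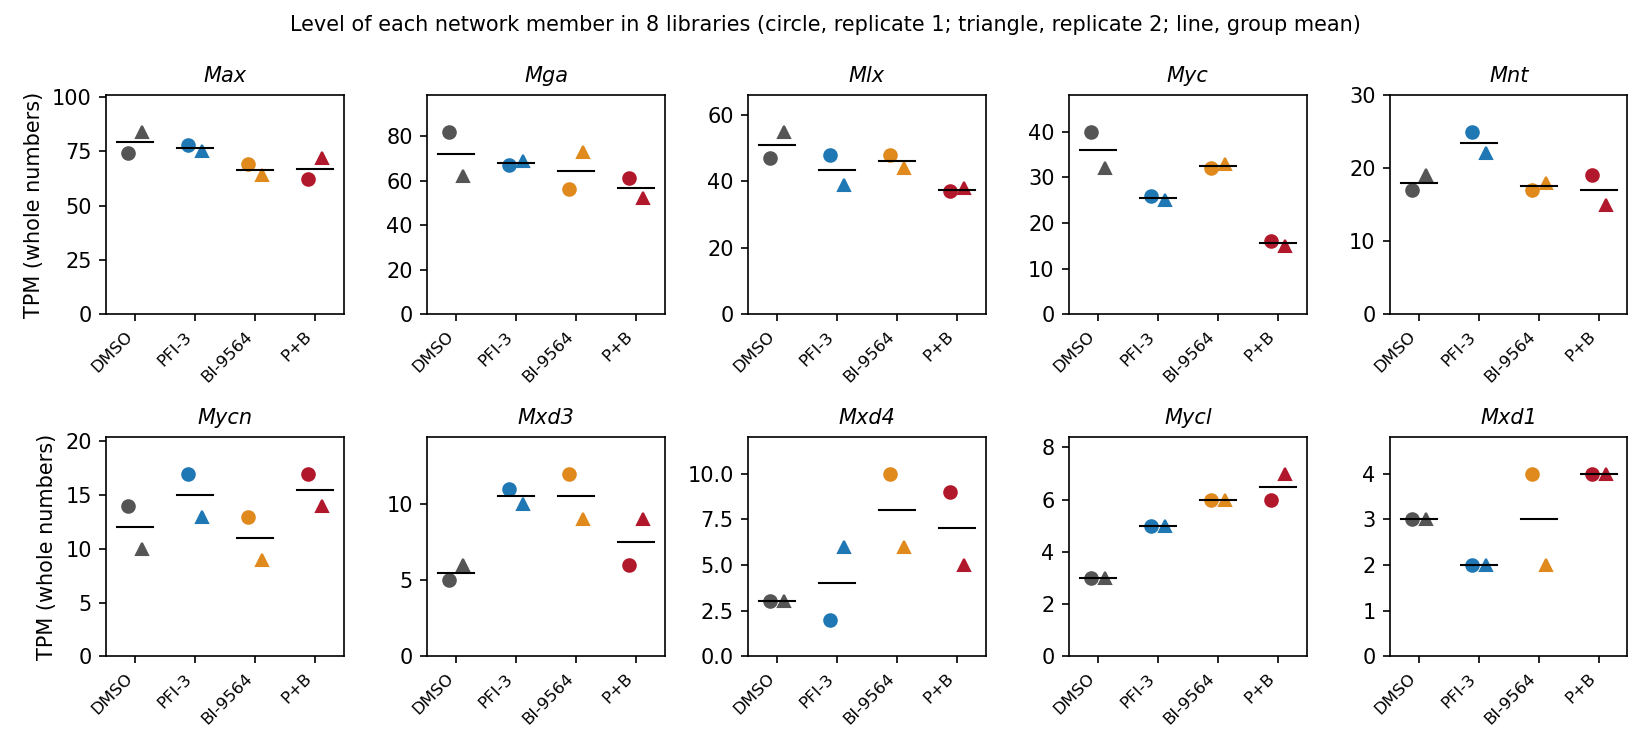
Level (TPM, y axis from 0, scaled for each gene) of the 10 genes in the 8 libraries, grouped by treatment on the x axis, with a circle for replicate 1, a triangle for replicate 2 and a line at the group mean. The Myc panel shows both P+B libraries, at 16 and 15 TPM, below all 6 other libraries, which lie between 25 and 40 TPM.

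Differences were tested with limma on log2(TPM + 1) for the 10222 genes that averaged 5 TPM or more over the libraries, all groups in one fit, with Benjamini-Hochberg adjustment over all of these genes. A gene was called changed at an adjusted p-value under 0.05 with a fold change of at least 1.5. Of the 10 genes of the network 9 were tested. Mxd1 was under the level filter, and Mxd4 and Mycl, at 3 TPM in both DMSO libraries, passed it only through their values with the compounds, so counts over the 9 tested genes describe these genes and no more.

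The question of the first comparison was what treatment with both compounds does to JUN-expressing ESCs. Myc, the founding oncogene of the family, stood at 0.431 of its mean DMSO level under P+B, and was the 1 gene of the network that changed. It read 40 and 32 TPM under DMSO, 26 and 25 TPM under PFI-3, 32 and 33 TPM under BI-9564 and 16 and 15 TPM under P+B. Both P+B libraries were the lowest of all 8, the PFI-3 libraries came next without touching the DMSO range, and the BI-9564 libraries lay within it. As group means this was 36 ± 5.66 TPM under DMSO, 25.5 ± 0.707 under PFI-3, 32.5 ± 0.707 under BI-9564 and 15.5 ± 0.707 under P+B (SD, n = 2 each), so that the ratio to the DMSO mean was 0.708, 0.903 and 0.431 for PFI-3, BI-9564 and P+B. Myc fell by 1.16 in log2(TPM + 1) under P+B (SE 0.15, 95% interval −1.50 to −0.82, limma adjusted p = 0.00546), the 86th smallest p-value of the 10222 genes tested. The call was lost without DMSO replicate 1, where the difference was −1.001 and the adjusted p-value 0.0562, without P+B replicate 2 (−1.11, adjusted p = 0.0578), and in a fit of only the 4 libraries compared (adjusted p = 0.112). Taken as a single value, 2 libraries against 2 cannot give an exact two-sided permutation p-value under 0.333. In bulk RNA, fewer cells with the transcript and less transcript per cell cannot be told apart.

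Jun, the induced gene, also varied between the libraries, and its values are given beside those of Myc. It read 1970 and 2877 TPM under DMSO, 1570 and 2227 under PFI-3, 2071 and 3011 under BI-9564 and 1569 and 2159 under P+B. Replicate 1 was below replicate 2 in every group, while Myc was lower in replicate 2 of the DMSO group and nearly equal between the replicates of the others. Jun did not pass in P+B against DMSO (−0.37, limma adjusted p = 0.437), and with the replicate number as a block its adjusted p-value was 0.00156 at a size under the fold threshold. The part of the Jun level in the Myc values was not tested. Of the genes whose products the compounds bind, the 4 tested were not called under P+B: Smarca4 was at 123 to 147 TPM over the libraries, Brd7 at 66 to 90, Brd9 at 21 to 27 and Pbrm1 at 40 to 47. Smarca2, at 2 to 5 TPM, was under the level filter and was not tested. The markers of pluripotent cells, 8 genes, summed to 3512 to 5377 TPM, all 8 passed the level filter. Under P+B Tdgf1 was lower past both thresholds (−0.93, limma adjusted p = 0.00916), and Esrrb was higher by 0.74, past them with the block (adjusted p = 0.120 without it and 0.00486 with it). Fibroblast markers (9 genes, 0 to 5 TPM summed, 5 at 0 in all libraries), primitive endoderm markers (6 genes, 3 to 10 TPM, 2 at 0) and trophoblast markers (5 genes, 5 to 12 TPM, 1 at 0) had low sums in every group. Within the trophoblast list, Cdx2 read 1 and 0 TPM under DMSO and 5 and 10 under P+B. Hand1 went the other way, from 4 and 6 to 1 and 1 TPM, as did Gata3, from 6 and 2 to 1 and 1. All of these markers were under the level filter and were not tested. The pluripotent sum was lower in replicate 2 of every group.

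Over all genes tested, 4% were called in P+B against DMSO, 2.72% lower and 1.28% higher, and the network had 1 of 9, which is too few genes to set a share against these. In genes this was 278 lower and 131 higher, and 305 and 81 after quantile normalization or 401 and 86 after centring each library on its median. With the replicate number as a block, 7.02% of all genes were called, 4.1% lower, and of the network again Myc alone (adjusted p = 0.00253). The groups did not overlap for 7 of the 10 genes, 3 higher and 4 lower under P+B, while 47.5% of all tested genes did not overlap, 28.6% higher and 18.9% lower. The 3 higher were Mycl, Mxd1 and Mxd4. Mxd1 was not tested and separated by a step of 1 TPM. Mycl and Mxd4 passed the level filter only through treated libraries, so the higher side describes these genes and no more. At an unadjusted p-value under 0.05 there were 3 genes of the network, Myc, Mycl and Mlx, beside 2306 of all genes. The median difference over the 9 tested genes was −0.08, beside 0.06 over all genes.

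Mycn, the paralog with a leading role in the embryo, did not go along with Myc. It read 14 and 10 TPM under DMSO, 17 and 13 under PFI-3, 13 and 9 under BI-9564 and 17 and 14 under P+B. The groups overlapped in all 3 comparisons with DMSO, touching at 14 TPM for P+B, and replicate 1 was higher in each group. With P+B the difference was 0.36 with an interval from −0.24 to 0.95 (limma adjusted p = 0.458), an interval that holds both 0 and values past the fold threshold. Mycl, the third paralog, read 3 and 3 TPM under DMSO, 5 and 5 under PFI-3, 6 and 6 under BI-9564 and 6 and 7 under P+B. All 6 treated libraries were above both DMSO libraries, at levels where each step is 1 TPM. The differences from DMSO were 0.58, 0.81 and 0.90 in log2(TPM + 1) for PFI-3, BI-9564 and P+B, and did not pass (limma adjusted p = 0.117 for P+B and 0.269 for BI-9564). Fitted without a trend of the variance on the level, Mycl passed under P+B at a limma adjusted p-value of 0.0160, with an SE of 0.110 in place of 0.292. Its replicates were equal or 1 TPM apart in whole numbers, so the spread between them is poorly known and this pass adds little.

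With Myc lower and Mycn and Mycl not, the make-up of the MYC transcripts differed between the groups. The sum of Myc, Mycn and Mycl was 57 and 45 TPM under DMSO, 48 and 43 under PFI-3, 51 and 48 under BI-9564 and 39 and 36 under P+B. Both P+B libraries were below the other 6, although by less than for Myc itself. Myc made up 70.2% and 71.1% of this sum under DMSO, 54.2% and 58.1% under PFI-3, 62.7% and 68.8% under BI-9564 and 41.0% and 41.7% under P+B. In this share none of the treated groups overlapped DMSO, and P+B was lowest. The ratio of Myc to Mycn was 2.86 and 3.2 under DMSO, 1.53 and 1.92 under PFI-3, 2.46 and 3.67 under BI-9564 and 0.941 and 1.07 under P+B, so that the pair stood at about equal levels only in the P+B libraries. These shares and ratios were computed after the single genes were known and were not tested.

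**Figure D2:**
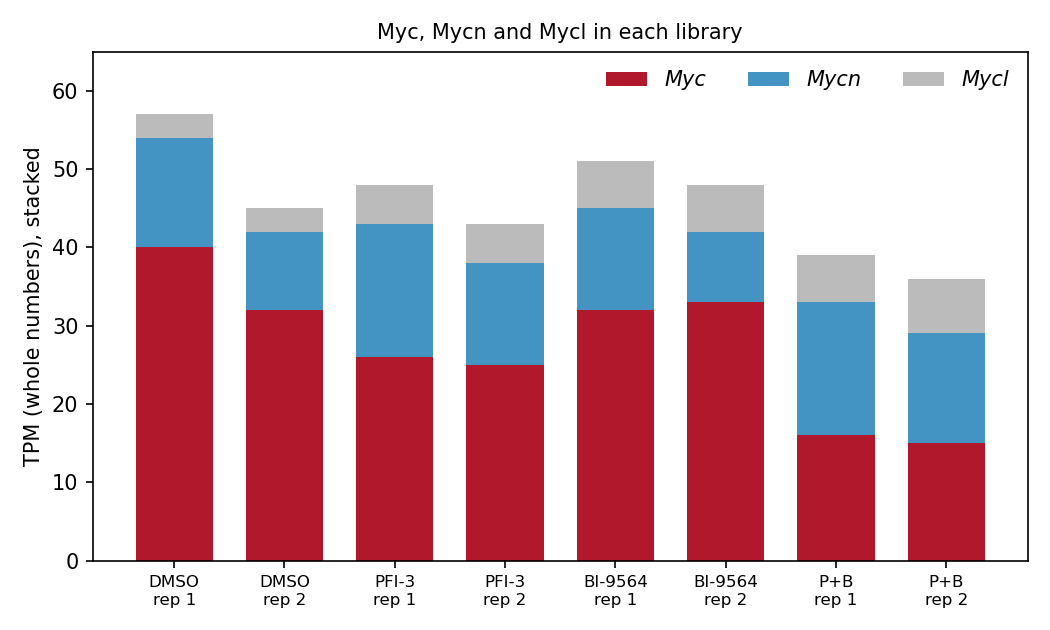
Stacked bars of the level (TPM, y axis from 0) of Myc, Mycn and Mycl in each of the 8 libraries on the x axis. The P+B bars are the shortest, at 39 and 36 TPM in all, and their Myc part is 16 and 15 TPM, about the size of the Mycn part at 17 and 14 TPM.

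Max, the obligate partner of the MYC proteins, read 74 and 84 TPM under DMSO, 78 and 75 under PFI-3, 69 and 64 under BI-9564 and 62 and 72 under P+B. The DMSO libraries were above those under BI-9564 and under P+B and overlapped those under PFI-3. The differences were small, −0.24 under P+B (limma adjusted p = 0.285), −0.24 under BI-9564 (adjusted p = 0.379) and −0.04 under PFI-3, and did not pass. Relative to the sum of the 3 MYC genes, Max stood at 1.298 and 1.87 under DMSO, 1.63 and 1.74 under PFI-3, 1.35 and 1.33 under BI-9564 and 1.59 and 2 under P+B, ranges that overlapped between DMSO and every treatment. Max transcript was thus above the MYC sum in all 8 libraries.

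Of the antagonists, Mxd3, which is known from proliferating cells in S phase, read 5 and 6 TPM under DMSO, 11 and 10 under PFI-3, 12 and 9 under BI-9564 and 6 and 9 under P+B. Each single compound was above both DMSO libraries, while P+B touched them at 6 TPM. The differences from DMSO were 0.83 under PFI-3 (limma adjusted p = 0.603), 0.82 under BI-9564 (adjusted p = 0.240) and 0.37 under P+B (adjusted p = 0.470). The P+B value less the sum of those of the single compounds was −1.27 in log2(TPM + 1) (SE 0.39, unadjusted p = 0.0108), which did not pass over all genes (limma adjusted p = 1).

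Mxd4 read 3 and 3 TPM under DMSO, 2 and 6 under PFI-3, 10 and 6 under BI-9564 and 9 and 5 under P+B. The BI-9564 and P+B libraries were above both DMSO libraries, and in each of these groups the replicates were far apart. It differed from DMSO by 1.13 under BI-9564 (limma adjusted p = 0.326) and 0.95 under P+B (adjusted p = 0.289), and neither passed. Mxd1, the founding member of the MXD genes, was near the bottom of the range, at 3 and 3 TPM under DMSO, 2 and 2 under PFI-3, 4 and 2 under BI-9564 and 4 and 4 under P+B. When the filter was lowered to a mean of 1 TPM it was tested and did not pass in any comparison with DMSO (limma adjusted p = 0.650 for P+B).

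Mnt, the antagonist expressed most widely across tissues, read 17 and 19 TPM under DMSO, 25 and 22 under PFI-3, 17 and 18 under BI-9564 and 19 and 15 under P+B. PFI-3 alone stood apart, above the other 6 libraries. The difference from DMSO was 0.37 under PFI-3 (limma adjusted p = 0.765) and −0.08 under P+B (adjusted p = 0.811). P+B less PFI-3 was −0.45 (unadjusted p = 0.0309, limma adjusted p = 0.250). Summed, Mxd1, Mxd3, Mxd4 and Mnt read 28 and 31 TPM under DMSO, 40 and 40 under PFI-3, 43 and 35 under BI-9564 and 38 and 33 under P+B, all 6 treated libraries above both DMSO libraries. With Mxi1, the remaining MXD gene, added, the sums were 40 and 42 TPM under DMSO, 53 and 50 under PFI-3, 53 and 44 under BI-9564 and 49 and 41 under P+B, and P+B overlapped DMSO. The MYC sum was 5.18 and 3.75 times the sum of the 3 MXD genes under DMSO, 3.2 and 2.39 times under PFI-3, 1.96 and 2.82 times under BI-9564 and 2.05 and 2 times under P+B. With Mxi1 added to the MXD genes the ratio was 2.48 and 1.96 under DMSO, 1.71 and 1.54 under PFI-3, 1.42 and 1.85 under BI-9564 and 1.3 and 1.38 under P+B. These sums were not tested.

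Mga, which tethers MAX to PRC1.6, read 82 and 62 TPM under DMSO, 67 and 69 under PFI-3, 56 and 73 under BI-9564 and 61 and 52 under P+B. P+B lay just below the DMSO range, which is itself wide, and the single compounds overlapped it. Its difference under P+B was −0.34 (limma adjusted p = 0.300). Mlx, the partner of MondoA, read 47 and 55 TPM under DMSO, 48 and 39 under PFI-3, 48 and 44 under BI-9564 and 37 and 38 under P+B. Both P+B libraries were the lowest of the 8 by 1 TPM or more. Mlx differed by −0.43 from DMSO under P+B (unadjusted p = 0.0159, limma adjusted p = 0.125) and did not pass.

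The single compounds were compared with DMSO to ask what each does alone. With PFI-3, 0 of the 9 tested genes of the network and 0% of all genes were called by limma. At an unadjusted p-value under 0.05 there were 2 genes of the network, Myc (−0.47, SE 0.15, adjusted p = 0.594) and Mxd3, beside 694 of all genes. The groups did not overlap for 5 of the 10 genes, with Mycl, Mxd3 and Mnt higher and Myc and Mxd1 lower, and 29.3% of all tested genes did not overlap, 16.5% higher and 12.8% lower. Of these, Mxd1 was not tested, and Mycl passed the level filter only through treated libraries. With BI-9564, 0 of the 9 and 0.108% of all genes were called, and 3 genes of the network, Mxd4, Mxd3 and Mycl, had an unadjusted p-value under 0.05, beside 1523 of all genes. All 3 were higher under BI-9564, and all 3 are at 12 TPM or less. Mxd4 and Mycl passed the level filter only through treated libraries, so the filter itself favoured this direction for them. Here the groups did not overlap for 4 of the 10, with Mycl, Mxd3 and Mxd4 higher and Max lower, beside 41.2% of all tested genes, 22.9% higher and 18.3% lower. The difference of Myc under BI-9564 was −0.14 (limma adjusted p = 0.720). The treatments share the DMSO libraries, so their differences from DMSO are set side by side and are not independent of each other.

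**Figure D3:**
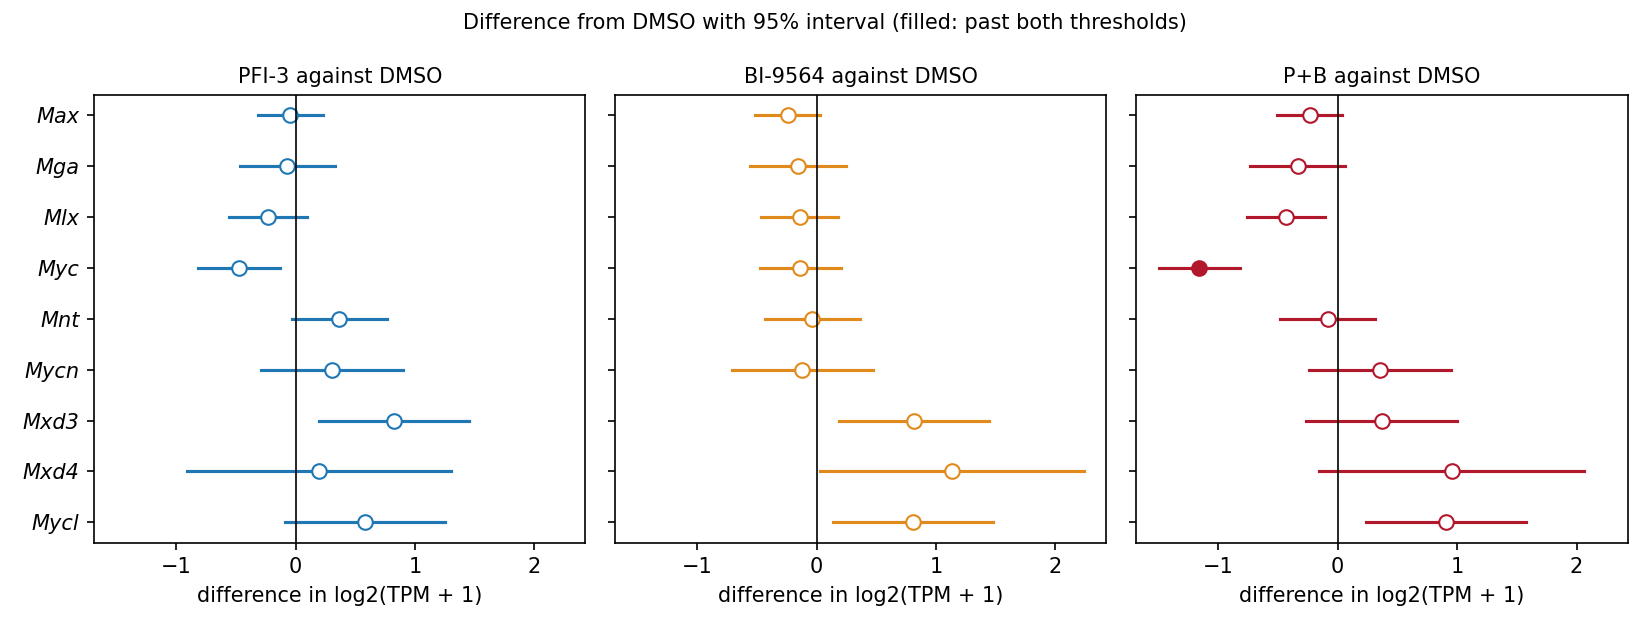
Difference from DMSO in log2(TPM + 1) on the x axis for the 9 tested genes of the network on the y axis, in a panel for each treatment, with points for the limma estimate and bars for its 95% interval. The only filled point, past both thresholds, is Myc under P+B at −1.16, and the intervals of Mxd4, Mxd3 and Mycl, the genes of low level, are wider than those of Max or Mlx.

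P+B was then compared with each single compound. Both P+B libraries were below those of either compound for Myc, with a difference of −0.68 in log2(TPM + 1) from PFI-3 (limma adjusted p = 0.0739) and −1.02 from BI-9564 (adjusted p = 0.0549), and neither passed. With the replicate number as a block, both passed, at adjusted p-values of 0.0328 and 0.0203. In all, 1.31% of genes were called against PFI-3 (3.43% with the block, 2.4% lower) and 0.196% against BI-9564 (0.802% with the block, 0.724% lower), and 0 of the 9 genes of the network without the block and 1 with it in each. At an unadjusted p-value under 0.05 there were 2 genes of the network against PFI-3, Myc and Mnt, and 1 against BI-9564, Myc, beside 1692 and 815 of all genes. The groups did not overlap for 8 of the 10 genes against PFI-3, 2 higher and 6 lower under P+B, beside 42.7% of all tested genes (23.8% higher and 18.9% lower). The 2 higher were Mycl, at 7 TPM or less, and Mxd1, which was not tested. Against BI-9564 they did not overlap for 3 of the 10, Mycn higher and Myc and Mlx lower, beside 31.4% (17.6% higher and 13.7% lower). Between the single compounds, Myc was 0.34 higher under BI-9564 than under PFI-3 (unadjusted p = 0.0521, limma adjusted p = 0.361) and Mnt differed by −0.40 (unadjusted p = 0.0479, adjusted p = 0.350), with 0 of the 9 and 0.108% of all genes called. Against the sum of the single compounds, Myc under P+B differed by −0.55 (SE 0.21, unadjusted p = 0.0307), which did not pass (limma adjusted p = 1). In that comparison 0 of the 9 and 0% of all genes were called, with 2 of the network and 333 of all genes at an unadjusted p-value under 0.05.

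The genes with the pattern most like Myc were sought over the 8 libraries, by the root mean square difference of log2(TPM + 1) after each gene was centred on its mean, among 9591 genes. Osbpl3, a lipid-binding protein of the oxysterol-binding family, was nearest at 0.0803, and read 37 and 26 TPM under DMSO, 21 and 21 under PFI-3, 28 and 28 under BI-9564 and 15 and 14 under P+B. Noct, the circadian gene nocturnin, came next at 0.102, with 224 and 209, 157 and 146, 201 and 192, and 116 and 90 TPM in the same order of groups. Dusp18, a phosphatase, was at 0.107, with 9 and 7, 6 and 6, 7 and 6, and 3 and 3 TPM. The median over the genes compared was 0.511. In all 3 genes, as for Myc, P+B was lowest and PFI-3 below BI-9564 in mean level. The genes were chosen by this likeness, so their differences between P+B and DMSO, −1.05 for Osbpl3, −1.07 for Noct and −1.16 for Dusp18, are a description without a test. Likeness over 8 libraries is a description and says nothing of shared control.

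Genes that MYC is known to activate, of ribosome production, nucleotide and polyamine synthesis and the cell cycle, were examined as a list. Of the 36 genes of this list 35 were tested, of which 1 rose, 0 fell and 34 did not pass, while with each library centred on its median 1 rose and 4 fell. The share called was 2.86%, near the 4% of all genes, and 13 of the 35 had an unadjusted p-value under 0.05, beside 2306 of all genes. The median difference was −0.14, beside 0.06 over all genes, and 27 of the 35 (77.1%) were below 0, beside 41.7% of all genes. Of the tested genes of the list only Tert, at 8.25 TPM, averaged under 20 TPM. Over all genes averaging 20 TPM or more the median difference was 0.03, and their share below 0 is not given here. The part of the level in this contrast was not tested. The gene that rose was Slc1a5, a glutamine transporter, which read 39 and 46 TPM under DMSO, 53 and 57 under PFI-3, 41 and 57 under BI-9564 and 75 and 73 under P+B. Its P+B libraries were above all others, and it rose by 0.79 (SE 0.16, limma adjusted p = 0.0361). With the block and both thresholds the list had 1 higher and 0 lower, beside 7.02% of all genes called. At an adjusted p-value under 0.05 with the block and no fold threshold, 10 were lower and 2 higher, and the count over all genes for that setting is not given here. Leaving the fold threshold aside in the fit without the block, 3 genes of the list were lower and 1 higher, beside 342 lower and 158 higher of all genes. The 3 lower were Odc1 (−0.53, limma adjusted p = 0.0106), the first enzyme of polyamine synthesis, Apex1 (−0.51, adjusted p = 0.0212), a DNA repair endonuclease, and Gnl3 (−0.52, adjusted p = 0.0267), a nucleolar GTPase. Gnl3 read 177 and 187 TPM under DMSO, 162 and 184 under PFI-3, 129 and 143 under BI-9564 and 130 and 124 under P+B. The BI-9564 and P+B libraries of Gnl3 lay together, below the other 4, and so did those of Apex1 (191 and 202 TPM under BI-9564, 174 and 203 under P+B). Odc1 read 925 and 945 TPM under DMSO, 714 and 819 under PFI-3, 799 and 853 under BI-9564 and 630 and 664 under P+B. For Odc1, as for Myc, both P+B libraries were the lowest. With the single compounds the list had 0 calls by limma. At an unadjusted p-value under 0.05 it had 1 under PFI-3 and 8 under BI-9564, beside 694 and 1523 of all 10222 genes. Its medians were −0.04 under PFI-3 and −0.08 under BI-9564, beside 0.02 and 0.02 over all genes.

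Genes that MYC is known to repress did not move together. Of 8 genes 5 were tested, of which 1 rose, 1 fell and 3 did not pass. The share called was 40%, beside 4% of all genes, and 5 genes are too few to set against it. Cdkn1a, the CDK inhibitor p21, read 90 and 77 TPM under DMSO, 96 and 73 under PFI-3, 148 and 141 under BI-9564 and 131 and 137 under P+B. Both groups with BI-9564 in them were above both groups without it. Cdkn1a rose by 0.68 under P+B (limma adjusted p = 0.0348), and differed by 0.79 under BI-9564, which did not pass without the block (adjusted p = 0.0799) and passed with it (0.0251). Gadd45a, a growth arrest and DNA damage gene, read 87 and 112 TPM under DMSO, 62 and 73 under PFI-3, 62 and 76 under BI-9564 and 46 and 47 under P+B. Every treated library was below both DMSO libraries, and Gadd45a fell by 1.07 under P+B (limma adjusted p = 0.0098). With the block Ndrg1, a differentiation-related gene, also passed (−1.27, limma adjusted p = 0.0413), which it did not without the block (0.179). Ndrg1 read 16 and 14 TPM under DMSO and 10 and 3 under P+B, where the libraries were far apart. Its difference was −2.00 to −0.54 over the fits that left out 1 library. All 3 calls were lost in a fit of only the 4 libraries compared (limma adjusted p = 0.112 for Gadd45a, 0.122 for Slc1a5 and 0.129 for Cdkn1a). They also depended on single libraries, and of the 8 fits that each left out 1 library Slc1a5 passed in 2, Cdkn1a in 2 and Gadd45a in 5. Gadd45a was lost without DMSO replicate 2 (limma adjusted p = 0.0778), P+B replicate 1 (0.0808) or P+B replicate 2 (0.0889). Slc1a5 was lost without any one of the DMSO, PFI-3 or P+B libraries (limma adjusted p from 0.0737 to 0.172) and Cdkn1a without any one of the DMSO, BI-9564 or P+B libraries (0.0712 to 0.183). Those of Slc1a5 and Cdkn1a were also lost when the level filter was lowered to a mean of 1 TPM (limma adjusted p = 0.0540 and 0.0529).

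**Figure D4:**
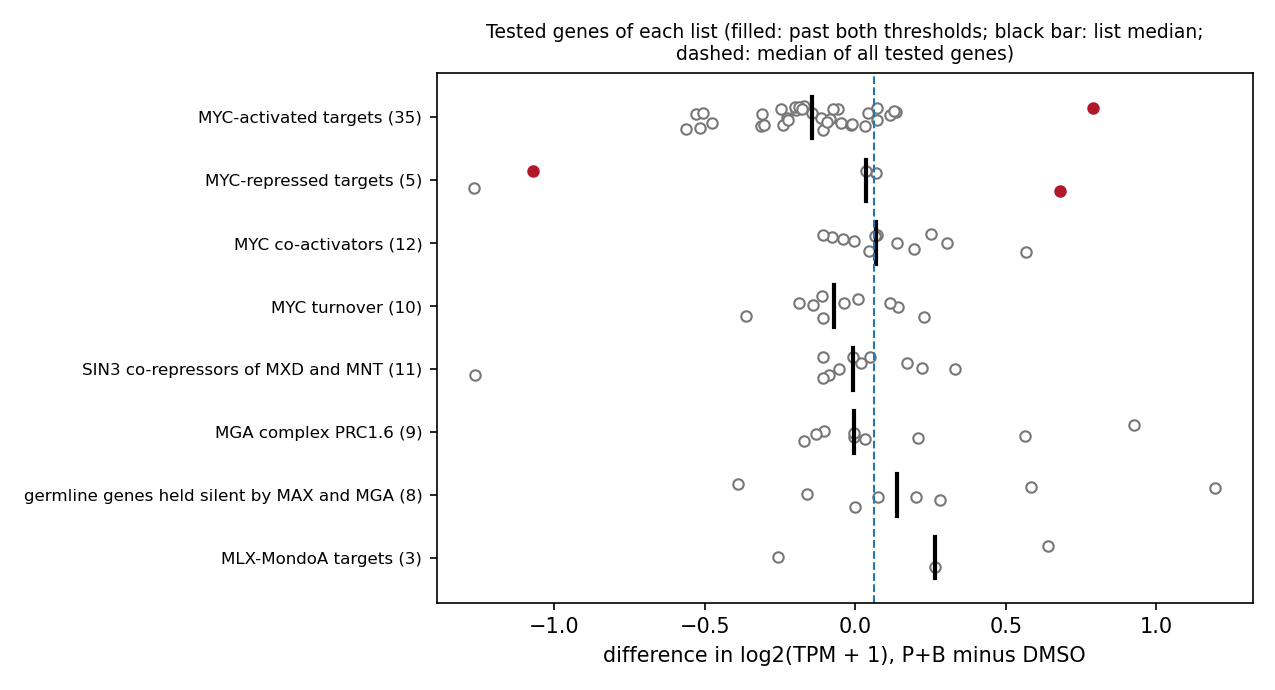
Difference between P+B and DMSO in log2(TPM + 1) on the x axis for the tested genes of each list (number in brackets) on the y axis, with a black bar at the list median and a dashed line at the median of all genes, 0.06. The filled points, past both thresholds, are Slc1a5 (0.79), Cdkn1a (0.68) and Gadd45a (−1.07), and no other list holds one.

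The remaining partners of the network stayed without calls in P+B against DMSO. Mxi1, a further MXD gene, read 12 and 11 TPM under DMSO and 11 and 8 under P+B (−0.27, limma adjusted p = 0.555). Mlxip (MondoA), which pairs with MLX and responds to glucose, read 12 and 11 TPM under DMSO and 14 and 17 under P+B (0.40, adjusted p = 0.269), and Mlxipl (ChREBP) 11 and 11 under DMSO and 6 and 10 under P+B (−0.45, adjusted p = 0.571). Mxi1 overlapped at 11 TPM, Mlxipl was lower and Mlxip higher in both P+B libraries than under DMSO. Of 3 genes known as targets of MLX and MondoA 0 were called by limma (0 at an unadjusted p-value under 0.05), and their median was 0.26, beside 0.06 over all genes. Txnip, the best known of them and a brake on glucose uptake, read 58 and 37 TPM under DMSO, 59 and 35 under PFI-3, 72 and 46 under BI-9564 and 87 and 61 under P+B. Replicate 1 of Txnip was higher in every group. The difference of Txnip under P+B was 0.64, which did not pass (limma adjusted p = 0.292), but passed with the block (0.00767) and with no level filter (0.0294). With no filter, 33075 of the 50600 genes fitted were at 0 in all libraries. These enter the variance estimate of that fit, so a pass there adds little.

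Genes whose products act on MYC or with its antagonists were also without calls. Over all 10222 genes tested 4% were called, 2306 had an unadjusted p-value under 0.05, and the median difference was 0.06. Of 12 co-activators 0 were called by limma (2 at an unadjusted p-value under 0.05), with a median of 0.07. Among them Ep400, an ATPase of the TIP60 complex that MYC recruits, read 72 and 82 TPM under DMSO, 80 and 94 under PFI-3, 106 and 111 under BI-9564 and 107 and 122 under P+B, and differed by 0.57 at an adjusted p-value of 0.0411 (limma), just under the fold threshold. Of 10 tested genes of MYC protein turnover 0 were called (1 at an unadjusted p-value under 0.05), with a median of −0.07. Usp7, a deubiquitinase, differed by −0.36 (limma adjusted p = 0.0451), under the fold threshold. Transcripts of the turnover enzymes say nothing of the MYC protein itself, which was not measured here. Of 11 SIN3 co-repressor genes 0 were called (2 at an unadjusted p-value under 0.05), with a median of −0.01. Sap18, a subunit of that complex, read 19 and 18 TPM under DMSO, 7 and 5 under PFI-3, 11 and 8 under BI-9564 and 10 and 5 under P+B. All 6 treated libraries of Sap18 were below DMSO, and its difference under P+B, −1.26, did not pass (limma adjusted p = 0.0678). It passed with the block (0.0187), with centring on the library median (0.0496) and with no level filter (0.00389). In the fit with no filter most genes were at 0 in all libraries, so a pass there adds little.

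Under P+B 2306 of the 10222 genes tested had an unadjusted p-value under 0.05, and the median difference over all genes was 0.06. On the side of MGA, 0 of 9 genes of PRC1.6 were called under P+B (2 at an unadjusted p-value under 0.05), with a median of −0.0039. Ring1, an E3 ligase subunit, had the largest difference of them, 0.92 (limma adjusted p = 0.161), from P+B libraries at 11 and 26 TPM that were far apart. Of 16 germline genes that MAX and MGA are known to keep silent, 8 passed the level filter and 0 were called (1, Stag3, at an unadjusted p-value under 0.05), with a median of 0.14 beside 0.06 over all genes. Stag3, a meiotic cohesin subunit, read 11 and 6 TPM under DMSO, 11 and 7 under PFI-3, 14 and 15 under BI-9564 and 20 and 20 under P+B. The P+B libraries of Stag3 were above all 6 others, and the difference of 1.196 did not pass (limma adjusted p = 0.0602). It passed with the block (0.0263) and with no level filter (0.00296), the latter a fit in which most genes were at 0 in all libraries. Dazl, a germ cell RNA-binding protein and one of the best known genes of this list, read 31 and 19 TPM under DMSO and 40 and 22 under P+B, and Ddx4, a germ cell helicase, 16 and 7 under DMSO and 17 and 9 under P+B. Both varied more between replicates 1 and 2 than between these groups. With BI-9564 alone 0 of the 8 were called as well (1 at an unadjusted p-value under 0.05, beside 1523 of the 10222 genes tested). Taf7l, at 7 and 2 TPM under DMSO, passed the level filter only through treated libraries, so the counts over these 8 describe them and no more.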

How the data were processed

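RNA-seq of 8 libraries in 4 groups was grouped by the labels. The authors deposited 1 table of whole-number values, a score per gene and library that is TPM made whole, with library sums of 991574 to 991897. The submitters' processing notes name bcl2fastq, Bowtie2 2.2.5, RSEM 1.3.0 and mm10, and the study's methods name DESeq2. The annotation, the strand setting and the way the values were made whole are not given in the sources used here. TPM keeps no depth, so the depth and the counting error are unknown and no count test was run. Of its rows, 94 had a repeated name, none of them a gene of the network.

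The test was limma 3.58.1 (in R 4.3.3, by lmFit and then eBayes, with the variance trend on the level) on log2(value + 1), over 10222 genes of mean 5 or more, in one fit without a block (4 residual degrees of freedom) and with Benjamini-Hochberg adjustment. The fit was tested on simulated data. Replicates 1 and 2 carry the same numbers in every group. Their difference, taken per gene, correlated between every pair of the groups (6 pairs, Pearson's r 0.143 to 0.236 across genes), without a stated batch. The main fit did not use this pairing, and its p-values leave it out. Each comparison was therefore also fitted with a block for the number. The alternatives were this block, other pseudocounts, level filters, scalings and thresholds, limma without a trend, only the libraries compared, and leaving out each library. The fit with no filter held 33075 genes at 0 in all libraries, which enter its variance estimate, so its low p-values and larger counts carry little weight.

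The genes of the network and all lists were chosen with earlier results of these data known. Named from each list were up to 3 genes past the thresholds with P+B, or else the gene with the lowest p-value, and all further genes of the network and the induced and bound genes. Odc1, Apex1, Gnl3, Ndrg1, Dazl, Ddx4, Taf7l, Tdgf1, Esrrb, Cdx2, Hand1 and Gata3 were named after their values were seen. Likeness to Myc was sought among tested genes with a symbol not of the Gm or Rik form. Promoter sequences are from RefSeq (GRCm38.p6) and positions from GENCODE M21.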

Additional observations from a re-analysis of the deposited data

How the results depend on the processing

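With P+B against DMSO the count of network genes called, 1 (Myc), was 2 without a trend in limma (Mycl added), 0 in a fit of only the libraries compared, and 0 to 1 over the fits that left out 1 library, in which a lone library is assumed to vary like the other groups. The difference of Myc was −1.31 to −1.001 over those fits, and its limma adjusted p-value 6.23e-05 to 0.112 over the other alternatives, the lowest with no filter. With the replicate number as a block the count against PFI-3 was 1 and against BI-9564 it was 1, in both Myc, where it was 0 without the block, and the block changed no other call among the genes of the network. The count against PFI-3 was also 1 with quantile normalization. Against BI-9564 it was 1 with quantile normalization, with centring on the library median, with a filter of a mean of at least 20 and with no filter. The counts with PFI-3 or BI-9564 against DMSO, between these compounds and against their sum were 0 under all alternatives run. The cause of these changes was not tested. The ranking by mean level placed 9 of the 10 genes at the same rank when the median was used.

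Small differences changed sign when 1 library was left out. Over these fits they ranged from −0.32 to 0.12 (Brd7), −0.046 to 0.18 (Pbrm1, −0.025 with centring) and −0.25 to 0.076 (Mnt) with P+B, from −0.27 to 0.13 (Mga), −0.13 to 0.047 (Max) and −0.42 to 0.81 (Mxd4) with PFI-3, and from −0.29 to 0.022 (Myc), −0.36 to 0.12 (Mycn), −0.35 to 0.044 (Mga) and −0.11 to 0.039 (Mnt) with BI-9564.

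Among all genes, the 409 calls of P+B against DMSO were 718 with the block, 907 with no filter, 124 at an adjusted p-value of 0.01, 0 with only the libraries compared (1962 at an unadjusted p-value under 0.05) and 68 to 268 with 1 library left out. For the other comparisons the largest counts came with no filter: 99 in place of 0 for PFI-3 and 315 in place of 11 for BI-9564 against DMSO, 525 in place of 134 for P+B against PFI-3 and 244 in place of 20 against BI-9564. Between the single compounds no filter gave 289 in place of 11, and against their sum 54 in place of 0. With the block they were 156 for BI-9564 against DMSO, 351 for P+B against PFI-3, 82 against BI-9564 and 151 between the single compounds. They were lower without a trend (4 against PFI-3 and 2 against BI-9564), with a filter of a mean of at least 1 (77 and 2), at an adjusted p-value of 0.01 (9 and 1) and with 1 library left out (0 to 51 and 0 to 7), and 0 with only the libraries compared. For BI-9564 against DMSO the count was 33 with a filter of a mean of at least 20 (18 between the single compounds), 21 with centring, 17 with a pseudocount of 5 and 0 without a trend, with a filter of a mean of at least 1, at 0.01 or with only the libraries compared. The 1 call among MYC-activated genes was 5 with centring (1 higher and 4 lower). It was 0 without a trend, with a filter of a mean of at least 1 or at an adjusted p-value of 0.01. The 2 among MYC-repressed genes were 3 with the block and 4 with no filter. They were 1 without a trend, with a filter of a mean of at least 1 or at an adjusted p-value of 0.01. Both lists also lost calls in some of the fits that left out 1 library. With only the libraries compared both lists had 0. TPM in whole numbers limits what can be seen for Mxd1, Mxd4 and Mycl, where 1 TPM is a large step.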
